A study of Mus musculus with 32 samples.

Results

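A set of 4383 sites of open chromatin changed in opposite directions in 2 sorted populations of reprogramming mouse cells when the architectural protein CTCF was knocked down. These member sites were chosen by peak presence alone: they had a peak in Thy1+ cells with CTCF shRNA and none in Thy1+ control cells, and they had no peak in SSEA1+ cells with CTCF shRNA and a peak in SSEA1+ control cells. They were taken from 238522 sites made by pooling the peak lists of these 4 groups and merging overlapping intervals, and they were 1.84% of them. A list counted as holding a site where 1 bp or more overlapped. Such a site is called open in that list, and a site without a peak is called closed.

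ATAC-seq, which maps open chromatin by where a transposase can insert adapters, was applied to 32 samples in 15 groups. Mouse embryonic fibroblasts of the OG2 line, which carry an Oct4-GFP reporter, were reprogrammed with the factors Oct4, Sox2, Klf4 and Myc. In the sorted series the factors came from a doxycycline-inducible lentivirus. The groups used here were Thy1+ cells with CTCF shRNA and with control shRNA (3 samples each, from days 3, 6 and 9), SSEA1+ cells with CTCF shRNA and with control shRNA (2 samples each, from days 6 and 9), SSEA1-Thy1- cells with CTCF shRNA and with control shRNA (2 samples each, from days 6 and 9), GFP+ cells with CTCF shRNA and with control shRNA (2 samples each, from day 12), and cells at day 0 with CTCF shRNA and with control shRNA (2 samples each). Further groups were cells at day 10 with CTCF overexpression, with CTCF overexpression plus Smarca5 shRNA and with the overexpression control, and unsorted cells at day 12 with Smarca5 shRNA and with control shRNA (2 samples each). The shRNAs were delivered by virus, each group is represented by 1 deposited peak list, and the sorted lists combine different days, so days within a population could not be separated.

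CTCF is a zinc finger protein that binds DNA at domain borders and insulators, where it stops the cohesin complex from extending chromatin loops. Thy1 is a surface protein of fibroblasts that most cells lose early in reprogramming. SSEA1 is a carbohydrate on the cell surface that cells gain on the way to pluripotency, and the Oct4-GFP reporter marks cells that have reached it. Sites that open during reprogramming include enhancers of pluripotency genes, and those that close include fibroblast enhancers bound by AP-1 factors.

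Some member sites covered gene starts, and the promoter sequences of 4 of them are given first as examples. Of 32851 RefSeq promoter windows of 300 bases (250 before and 50 after the start, assembly GRCm38.p6), 66 overlapped a member, which is 0.201%. These came from 58 member sites. The protein-coding windows among them numbered 38 and belonged to 34 genes. A window lay wholly inside a member for 11 protein-coding genes, which were 7420426K07Rik, Amt, Brdt, Gm3739, Krt2, Ldhc, Ly86, Pgf, Prss42, Resp18 and Syce3. The promoters of Brdt, Ldhc, Prss42 and Syce3 are shown, chosen after their values were seen, because these 4 genes are known from germ cells and their member sites were open in both GFP+ lists and closed in both day 0 lists. The member sites at Amt, Ly86 and Resp18 had the same states in these lists, so this profile is not particular to the germ cell genes. Brdt encodes a testis bromodomain protein, Ldhc the lactate dehydrogenase of sperm, Prss42 a testis serine protease and Syce3 a protein of the synaptonemal complex, which holds homologous chromosomes together in meiosis. Capitals mark letters of the searched motifs, all on the gene's strand: TGACTCA of AP-1 in Brdt and Prss42, CAGGTG of the E-box bound by Snail and Zeb factors in Ldhc, and GCCCCCT, which is the CTCF core AGGGGGC read on the other strand, in Syce3.
Brdt: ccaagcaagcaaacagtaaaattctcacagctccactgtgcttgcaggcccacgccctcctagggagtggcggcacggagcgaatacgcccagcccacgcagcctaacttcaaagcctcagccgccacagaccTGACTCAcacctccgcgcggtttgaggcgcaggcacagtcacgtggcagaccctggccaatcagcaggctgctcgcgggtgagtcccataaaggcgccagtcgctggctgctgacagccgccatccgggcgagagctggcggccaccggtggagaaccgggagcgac
Ldhc: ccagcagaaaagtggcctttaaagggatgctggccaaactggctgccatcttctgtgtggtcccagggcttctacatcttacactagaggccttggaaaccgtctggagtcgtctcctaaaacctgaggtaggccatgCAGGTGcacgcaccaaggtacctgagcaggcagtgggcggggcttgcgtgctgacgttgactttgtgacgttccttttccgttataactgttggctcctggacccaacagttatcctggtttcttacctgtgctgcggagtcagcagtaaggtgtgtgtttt
Prss42: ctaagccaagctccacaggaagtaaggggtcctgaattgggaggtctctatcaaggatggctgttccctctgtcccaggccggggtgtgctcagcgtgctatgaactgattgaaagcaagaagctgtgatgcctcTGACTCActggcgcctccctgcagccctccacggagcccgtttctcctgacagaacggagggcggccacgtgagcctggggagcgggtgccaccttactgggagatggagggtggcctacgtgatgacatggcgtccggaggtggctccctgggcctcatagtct
Syce3: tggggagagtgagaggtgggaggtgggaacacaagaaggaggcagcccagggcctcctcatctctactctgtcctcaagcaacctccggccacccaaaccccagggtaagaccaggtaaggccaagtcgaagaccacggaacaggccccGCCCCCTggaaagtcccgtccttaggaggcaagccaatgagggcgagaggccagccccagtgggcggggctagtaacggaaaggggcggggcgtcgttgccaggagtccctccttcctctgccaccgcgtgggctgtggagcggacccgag

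The Brdt window lay at chr5:107330944-107331243 on the plus strand and held 23 CpG dinucleotides. The Ldhc window lay at chr7:46861013-46861312 on the plus strand with 9 CpG, the Prss42 window at chr9:110797935-110798234 on the plus strand with 12 CpG, and the Syce3 window at chr15:89410214-89410513 on the minus strand with 15 CpG. The Ldhc member was open in both SSEA1-Thy1- lists, and the members at Brdt, Prss42 and Syce3 were closed in both, as were 15.0% of all members. The promoters shown are picked examples and do not stand for the member windows. Those of 7420426K07Rik, Krt2 and Pgf, also wholly inside a member, held none of the searched motifs. A list of 12 other germline genes, among them Dazl, Ddx4 and Sycp3, had 0 members among the 154 pooled sites within 50 kb of its genes, which allows a share of up to 2.37% (upper exact 95% limit). The share over all protein-coding genes was 1.77%, which lies below that limit, so the count of 0 does not set these genes apart.

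The 66 promoter windows that met a member had a median of 7 CpG and 53% GC, against 20 CpG and 60.7% GC in the 15601 windows that met a pooled site and 7 CpG and 52.7% GC in all windows. The 352 windows meeting other sites closed in Thy1+ control and open in SSEA1+ control cells had 6 CpG and 52.7% GC. The 51 windows meeting sites lost in Thy1+ and gained in SSEA1+ cells had 5 CpG and 52.7% GC. The low CpG count was therefore not particular to members. The E-box letters CAGGTG stood on either strand in 18 of the 66 member windows (27.3%), against 18.6% of the windows meeting a pooled site and 20.2% of all windows. The AP-1 letters TGANTCA stood in 8 member windows (12.1%), against 6.73% and 7.81%. Here N is any base, so TGAATCA and TGATTCA count beside TGACTCA and TGAGTCA. At Esp1, Gm27211 and Gm35722 the letters found were TGAATCA or TGATTCA. The CTCF core letters stood in 8 member windows (12.1%), against 16.2% and 10.6%, and the octamer ATGCAAAT bound by Oct4 stood in 2 (3.03%), against 1.67% and 1.74%. These 2 octamer windows overlap at Gm31415 and meet the same member, so the same match is counted in both. The letters GGAATG of Tead factors stood in 8 member windows (12.1%), against 12.3% and 14.7%, CCCCACCC of Klf factors in 7 (10.6%), against 12.8% and 9.99%, and TGTGGTT of Runx factors in 2 (3.03%), against 3.73% and 5.27%. The letters TCAAGGTCA of Esrrb, AACCNGGTT of Grhl factors and the Oct4-Sox2 composite motif were in 0 of the 66. Overlaps between motifs were not resolved, and with 66 windows each share rests on few genes. Some windows overlap each other and meet the same member, as at Ldhc and Gm39011, so windows are not separate cases. Each window was searched whole, also where only part of it lay in the member. Letters counted here can therefore lie outside the member, as at Grid2ip. A match is a description of letters and not of binding.

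The 4 lists that chose the members differed in size and in their overlap with other lists. After merging, the Thy1+ lists held 213386 peaks with CTCF shRNA and 194446 with control shRNA, and the SSEA1+ lists held 183640 with CTCF shRNA and 135749 with control shRNA. Of the pooled sites in either list, 76.4% were in both the SSEA1+ CTCF shRNA list and the Thy1+ CTCF shRNA list. For the SSEA1+ CTCF shRNA list the share was 71.6% with the Thy1+ control list and 64.2% with the SSEA1+ control list. Such a share is limited by differences in list size, and the SSEA1+ control list was the shortest of the 4. Of its 135748 pooled sites, 124899 were also in the SSEA1+ CTCF shRNA list, so the shares do not rank resemblance. The SSEA1+ CTCF shRNA list also shared 48.5% with the day 0 control list, against 27.4% for the SSEA1+ control list. With the GFP+ control list it shared 37.9%, against 47.6% for the SSEA1+ control list. The Thy1+ CTCF shRNA list in turn shared 56.4% with the day 0 control list, against 65.0% for the Thy1+ control list. All member counts rest on these lists, and sequencing depth and cell purity behind them are unknown, so their part in the member count was not tested.

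The gates could be compared only loosely with open chromatin at their genes. Gene-end peaks, at most 1 kb from either end of a gene, were present at Thy1 and at Fut4, a fucosyltransferase gene of the SSEA1 epitope, in all 10 day 0 and sorted lists. At Pou5f1, the gene of Oct4, such a peak was absent from the 4 Thy1+ and SSEA1+ lists and present in the other 6. Of 32 pluripotency genes, 27 had such a peak in each GFP+ list, against 16 with CTCF shRNA and 17 with control shRNA at day 0. In the lists that chose the members, the count was 23 in Thy1+ CTCF shRNA, 18 in Thy1+ control, 19 in SSEA1+ CTCF shRNA and 20 in SSEA1+ control cells. Of 34 fibroblast genes, 34 had one in Thy1+ CTCF shRNA, 33 in Thy1+ control, 32 in SSEA1+ CTCF shRNA and 30 in SSEA1+ control cells. Over all 21883 protein-coding genes the counts were 15650, 15373, 15306 and 14865 in the same order of lists, so the fibroblast counts fell in the order of the background. With CTCF shRNA and control shRNA, this background was 14909 and 14789 in GFP+ cells and 14769 and 14823 at day 0.

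Where the rule fell among all pooled sites is given as a description, without a test. With CTCF shRNA, 34887 pooled sites (14.6%) were gained in Thy1+ cells, and 10849 (4.55%) were lost in SSEA1+ cells. Members made up 12.6% of the Thy1+ gains (exact 95% Clopper-Pearson interval 12.2 to 12.9%) and 40.4% of the SSEA1+ losses (39.5 to 41.3%). Intervals here and below cover counting error over sites only. Both criteria select sites closed in Thy1+ control and open in SSEA1+ control cells, of which there were 26979, and 16.2% of these were members (15.8 to 16.7%).

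Among those 26979 sites, the share lost was lower where a site was also gained. Of them, 20786 (77.0%) gained a peak in Thy1+ cells with CTCF shRNA, and 7628 (28.3%) lost theirs in SSEA1+ cells. Among the gained sites 21.1% lost their SSEA1+ peak (20.5 to 21.6%), against 52.4% of the 6193 sites not gained (51.1 to 53.6%). Alongside the 4383 members, 16403 sites were gained in Thy1+ and kept in SSEA1+ cells, 3245 were not gained and lost, and 2948 were neither gained nor lost. The 22596 sites other than members serve below as the comparator with the same control state. The 4150 sites that changed the opposite way, lost in Thy1+ and gained in SSEA1+ cells, are a further comparator.

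Member sites were uniform in shape. In all, 4378 of them were 400 bp wide and had identical coordinates in the Thy1+ CTCF shRNA and SSEA1+ control lists, and the widest was 795 bp. The nearest peak of either list that lacked them was 4 bp away at the closest member. Such a peak lay within 200 bp of 32 members and within 1 kb of 676, and 765 members had none within 10 kb. The median distance was 4211 bp to the nearest Thy1+ control peak and 4233 bp to the nearest SSEA1+ CTCF shRNA peak. Just outside the rule, 17 Thy1+ CTCF shRNA peaks overlapped the SSEA1+ control list and met a peak of an excluded list by 50 bp or less.

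Lists the rule did not use place the members in the reprogramming series. Nearly all were closed in fibroblasts before reprogramming: 219 (5.00%, 4.37 to 5.68%) were open at day 0 with CTCF shRNA and 250 (5.70%, 5.04 to 6.43%) with control shRNA, against 58.5% and 58.3% of all pooled sites. Most were open in SSEA1-Thy1- cells, where 3418 (78.0%, 76.7 to 79.2%) had a peak with CTCF shRNA and 2533 (57.8%, 56.3 to 59.3%) with control shRNA, against 67.3% and 62.7% of all pooled sites. In GFP+ cells 1644 (37.5%, 36.1 to 39.0%) had a peak with CTCF shRNA and 1449 (33.1%, 31.7 to 34.5%) with control shRNA, against 39.1% and 34.0% of all pooled sites.

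**Figure D1:**
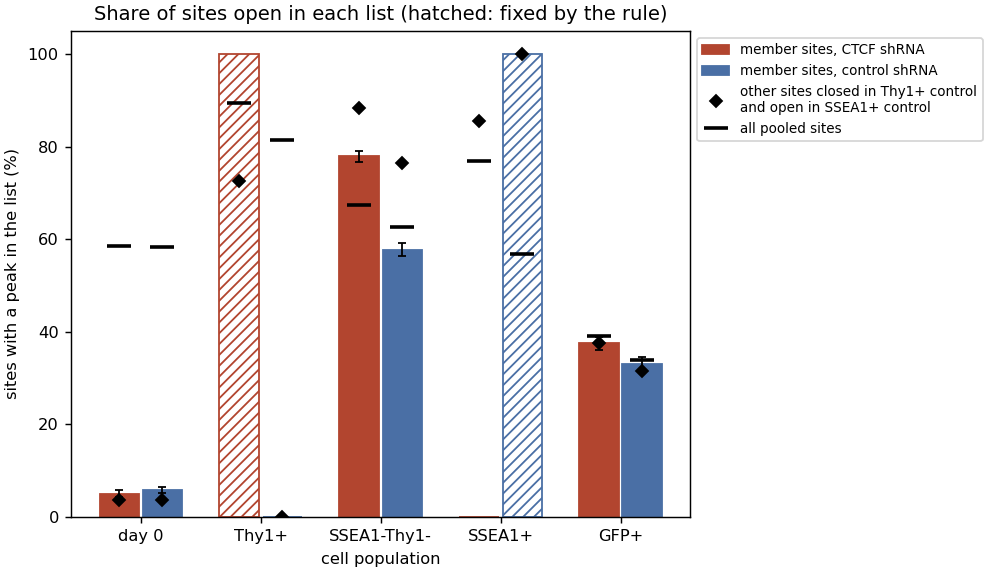
Share of sites with a peak (vertical axis, percent) in each of 5 cell populations (horizontal axis), with CTCF shRNA left of control shRNA. Bars are the 4383 member sites with exact 95% intervals, hatched where the rule fixed the value, diamonds are the 22596 other sites of the same control state and dashes are all pooled sites. Member bars are low at day 0 (5.00% and 5.70%) and differ most between the shRNAs in SSEA1-Thy1- cells (78.0% and 57.8%).

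Much of this profile was shared by the comparator with the same control state. Its day 0 shares were 3.70% with CTCF shRNA and 3.69% with control shRNA, and its GFP+ shares 37.6% and 31.6%, both within a few percentage points of the members. In SSEA1-Thy1- cells the members lay lower, at 78.0% with CTCF shRNA and 57.8% with control shRNA, against 88.4% and 76.5% of the comparator. Sites that changed the opposite way had another profile: 67.5% and 67.0% were open at day 0, 26.6% and 19.7% in SSEA1-Thy1- cells, and 19.2% and 12.5% in GFP+ cells (CTCF shRNA before control in each pair). With 1 list per group, none of these differences has a replicate check.

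The CTCF shRNA effect in the unused pairs was measured as the share open with CTCF shRNA minus the share open with control shRNA. For member sites it was -0.71 percentage points at day 0, 20.2 in SSEA1-Thy1- cells and 4.45 in GFP+ cells. The mean over these 3 pairs was 7.98 points (SD 10.9), above 0 in 2 of 3 pairs, with an exact two-sided sign-flip permutation p of 0.5 and an adjusted p of 0.75 (Benjamini-Hochberg over 3 values). Over all pooled sites the differences were 0.23, 4.60 and 5.13 points, with a mean of 3.32 (SD 2.69), above 0 in 3 of 3 pairs, an exact p of 0.25 and an adjusted p of 0.75. Members minus all pooled sites gave -0.93, 15.6 and -0.68 points, a mean of 4.66 (SD 9.47), above 0 in 1 of 3 pairs, with an exact p of 1 and an adjusted p of 1. The smallest p that 3 pairs allow is 0.25. Without the SSEA1-Thy1- pair the mean of members minus all pooled sites was -0.80 points. The comparator with the same control state differed by 0.01 points at day 0, 11.9 in SSEA1-Thy1- cells and 5.96 in GFP+ cells. In SSEA1-Thy1- cells the difference was 11.7 points for the 30504 sites gained in Thy1+ cells without the SSEA1+ loss and 12.6 points for the 6466 sites that had the loss without the gain.

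The SSEA1-Thy1- population, which has lost Thy1 and does not carry SSEA1, held the largest member difference of the 3 pairs. There 2226 members (50.8%) were open in both lists, 1192 (27.2%) with CTCF shRNA only, 307 with control shRNA only and 658 (15.0%) in neither. Across all pooled sites 9.77% were gained and 5.18% lost in this pair. Of the 1850 members closed in SSEA1-Thy1- control cells, 64.4% were gained with CTCF shRNA (62.2 to 66.6%), against 65.6% of the comparator with the same control state (64.3 to 66.8%), 19.7% of the opposite sites and 26.2% of all pooled sites. Of the 2533 members open in SSEA1-Thy1- control cells, 12.1% were lost (10.9 to 13.5%), against 4.61% of the comparator (4.30 to 4.93%), 45.0% of the opposite sites and 8.25% of all pooled sites.

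In GFP+ cells 1229 members (28.0%) were open in both lists, 415 (9.47%) with CTCF shRNA only, 220 (5.02%) with control shRNA only and 2519 (57.5%) in neither. The background over all pooled sites was 9.79% gained and 4.66% lost, so the members' shares were near it. Of members closed in GFP+ control cells 14.1% were gained, against 15.7% of the comparator and 14.8% of all pooled sites. Of members open in GFP+ control cells 15.2% were lost, against 15.2% of the comparator and 13.7% of all pooled sites. At day 0, 73 members (1.67%) were open with CTCF shRNA only, 104 (2.37%) with control shRNA only and 146 (3.33%) in both, beside a background of 2.77% gained and 2.54% lost. Of the 250 members open in day 0 control cells 41.6% were lost (35.4 to 48.0%), against 37.2% of the comparator (33.9 to 40.6%) and 4.37% of all pooled sites.

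**Figure D2:**
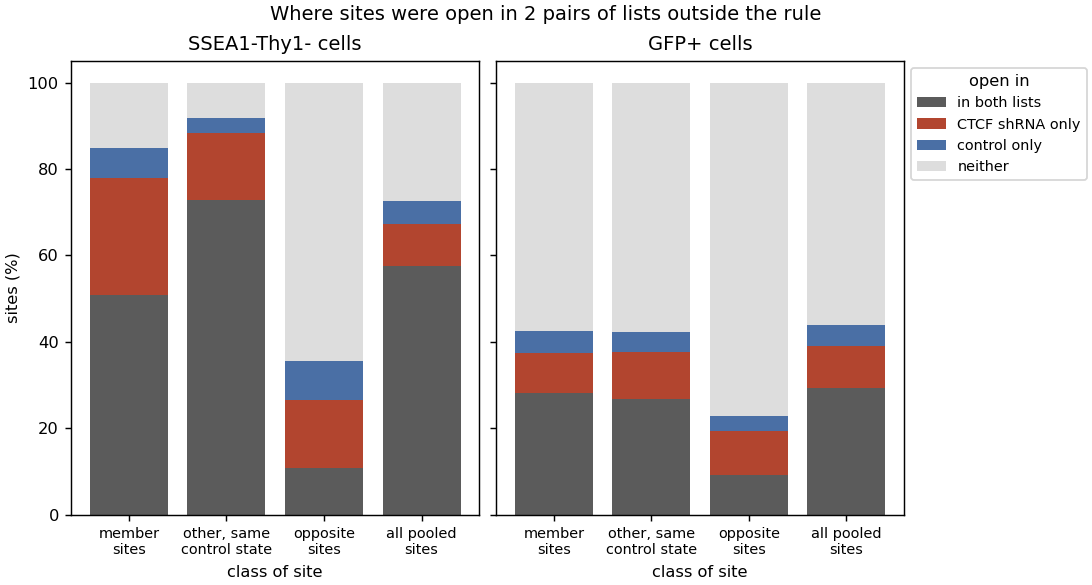
Share of sites (vertical axis, percent) open in both lists, with CTCF shRNA only, with control shRNA only or in neither, for SSEA1-Thy1- cells (left) and GFP+ cells (right). In SSEA1-Thy1- cells 27.2% of member sites were open with CTCF shRNA only, against 15.4% of the other sites with the same control state, 15.8% of the opposite sites and 9.77% of all pooled sites. In GFP+ cells the member share was 9.47%.

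The pattern of each member over the 6 unused lists showed where it was open besides the lists that chose it. In total 61 patterns occurred. The most frequent, with 1466 members (33.4%), was open in both SSEA1-Thy1- lists and closed in the other 4. It was followed by 614 members (14.0%) open with CTCF shRNA in SSEA1-Thy1- cells alone and 374 (8.53%) open in both SSEA1-Thy1- and both GFP+ lists. A further 330 (7.53%) were open with CTCF shRNA in SSEA1-Thy1- cells and in both GFP+ lists, and 298 (6.80%) in both GFP+ lists alone. Members open in exactly 2 of the 6 lists numbered 2049 (46.7%), 185 (4.22%) were open in none, and 11 (0.251%) were open in all 6, against 15.9% of all pooled sites open in all 6.

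**Figure D3:**
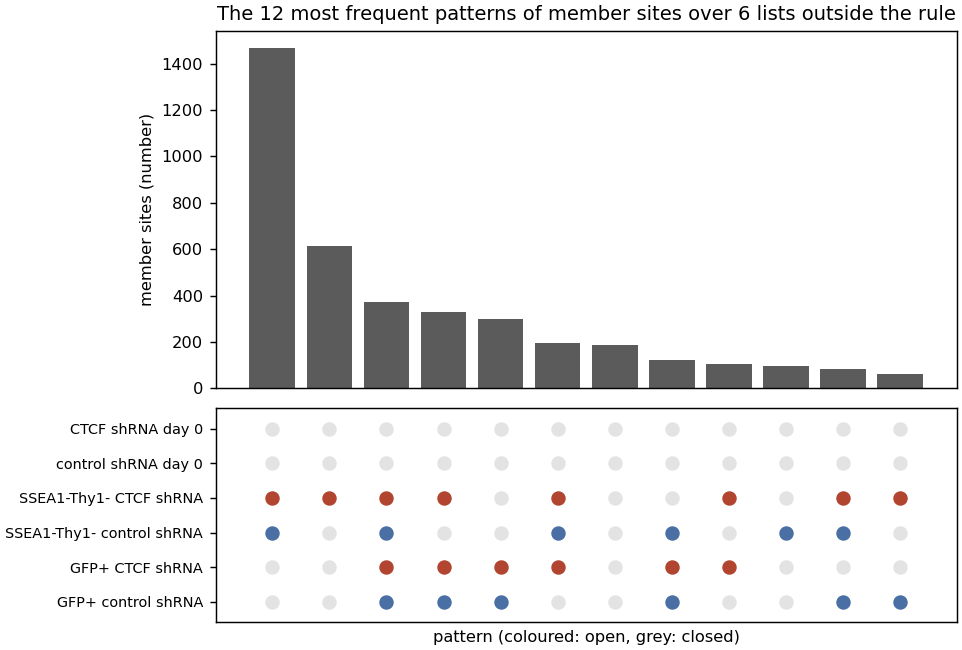
Number of member sites (vertical axis) for the 12 most frequent patterns over the 6 lists outside the rule. Coloured dots below mark the lists in which the pattern is open and grey dots those in which it is closed. The first pattern, 1466 sites, is open in both SSEA1-Thy1- lists alone, and none of the 12 is open at day 0.

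Most members were open neither at the start nor at the end of the series. In all, 2360 (53.8%) had no peak at day 0 or in GFP+ cells, against 55.6% of the comparator with the same control state and 22.2% of all pooled sites. Another 1700 (38.8%) were closed at day 0 and open in at least 1 GFP+ list, against 39.4% of the comparator and 16.8% of all pooled sites. The remaining 323 (7.37%) were open in at least 1 day 0 list, against 5.07% of the comparator, 71.3% of the opposite sites and 61.1% of all pooled sites.

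Members closed in both SSEA1-Thy1- lists were more often open in GFP+ cells than members open in both or with CTCF shRNA only. The 307 members open with control shRNA only are not in this comparison, so it does not rank all states. Their most frequent pattern, with 124 members, was open in both GFP+ lists and closed at day 0. The GFP+ control list held 359 of the 658 members closed in both SSEA1-Thy1- lists (54.6%, 50.7 to 58.4%), 426 of the 1192 open with CTCF shRNA only (35.7%, 33.0 to 38.5%) and 503 of the 2226 open in both (22.6%, 20.9 to 24.4%). In the GFP+ CTCF shRNA list the shares were 58.5%, 39.6% and 27.6% in the same order. The comparator with the same control state ran alike, at 66.8%, 36.2% and 25.3% in the GFP+ control list. Over all pooled sites the order was the other way round, at 10.2%, 23.7% and 47.7%.

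The day 10 and day 12 lists were shorter, with 66321 to 72414 and 43618 to 44279 merged peaks. Shares of all pooled sites were lower in them than in the day 0 and sorted lists. For comparison, the GFP+ control list had 91337 merged peaks and held 33.1% of members and 34.0% of all pooled sites. The part of list length in these shares was not tested. Members were open in 479 cases (10.9%) with CTCF overexpression, 365 (8.33%) with CTCF overexpression plus Smarca5 shRNA and 548 (12.5%) in the overexpression control at day 10, against 25.6%, 25.7% and 27.7% of all pooled sites. In unsorted day 12 cells 116 members (2.65%) were open with Smarca5 shRNA and 136 (3.10%) with control shRNA, against 17.8% and 17.4% of all pooled sites. At least 1 day 10 list held 674 members (15.4%), against 17.1% of the comparator with the same control state and 31.1% of all pooled sites.

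Members were mostly away from gene ends. A gene end of a protein-coding gene lay within 1 kb of 253 members (5.77%, 5.10 to 6.50%), against 5.01% of the comparator with the same control state, 3.98% of sites with the Thy1+ gain alone, 7.84% of sites with the SSEA1+ loss alone, 4.41% of the opposite sites and 9.04% of all pooled sites. Gene bodies held 1971 (45.0%), against 49.0% of the comparator and 46.2% of all pooled sites, and 2159 (49.3%) lay outside genes, against 46.0% and 44.7%. The median distance to the nearest end of a protein-coding gene was 31.3 kb (quartiles 8.68 and 100.3 kb), against 27.1 kb for the comparator and 27.4 kb for all pooled sites. The gene table gives no strand, so a gene end may be a start or a 3' end.

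Members were spread over the genome. The median distance to the nearest other member was 164 kb, and 235 members (5.36%) had another within 10 kb. Of 3924 windows of 100 kb with a member, 3519 held 1, and 8 held 4 or more. By chromosome, members were between 1.41% of pooled sites on chromosome 19 and 2.17% on the X chromosome, with 1 member among the 18 pooled sites of the Y chromosome.

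The windows with the most members held 5 each. On chromosome 5, between 28100001 and 28200000 (mm10), 5 of 17 pooled sites around En2 were members. En2 is a homeobox gene of midbrain and hindbrain development. All 5 were open in both GFP+ lists, 3 with CTCF shRNA and 4 with control shRNA in SSEA1-Thy1- cells, and 1 at day 0. None overlapped En2 itself, the nearest at chr5:28174960-28175359 lying 2.97 kb from its end. The gene end nearest the member at chr5:28199272-28199671 was that of Cnpy1, at 1.35 kb. For the member at chr5:28118066-28118465 it was that of Insig1, at 39.6 kb. On chromosome 15, between 96400001 and 96500000, 5 of 23 pooled sites around Arid2, Scaf11 and Gm41408 were members, of which 4 were open in SSEA1-Thy1- cells with CTCF shRNA and 2 with control shRNA. The other windows, with 4 members each, lay at Nckap1, Macrod2, Etv6 with Gm46977, Pcca with Ggact, Lbx1, and a window on chromosome 10 without a protein-coding gene.

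By gene, 5304 of 21883 protein-coding genes (24.2%) had a member in the gene or within 50 kb, and 1827 (8.35%) had one in the gene or within 1 kb. Of these, 4311 had 1 within 50 kb, and 23 had 5 or more. The genes with the most members also held many pooled sites: Tenm3, a teneurin of neuronal wiring, had 10 of 157 pooled sites, and Macrod2, an ADP-ribose hydrolase gene, had 8 of 196. Pcca, a subunit of propionyl-CoA carboxylase, had 7 of 61. With 6 each followed Diaph3, a formin, Dmd, the dystrophin gene, Dennd1a, a Rab exchange factor, Negr1 and Cntnap2, neuronal adhesion genes, Sox5, a transcription factor gene, and Ptprd, a receptor tyrosine phosphatase.

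Member sites of one gene differed in which lists held them. At Tenm3, 9 of 10 were open in SSEA1-Thy1- cells with CTCF shRNA and 4 with control shRNA, with 3 and 2 in GFP+ cells. At Ptprk, another receptor tyrosine phosphatase, all 5 were open in SSEA1-Thy1- cells with CTCF shRNA and 1 with control shRNA, and the one open in control lay at chr10:28541405-28541804 in the gene body. At Cntnap2, 6 were open with CTCF shRNA and 3 with control shRNA in SSEA1-Thy1- cells, and none was open in GFP+ cells. Negr1 and Ptprd likewise had no member open in GFP+ cells. At Sox5 the order turned, with 5 of 6 open in each GFP+ list and 2 of 6 in each SSEA1-Thy1- list. At Lef1, a factor of Wnt signalling, 3 of 5 were open in each of these 4 lists.

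**Figure D4:**
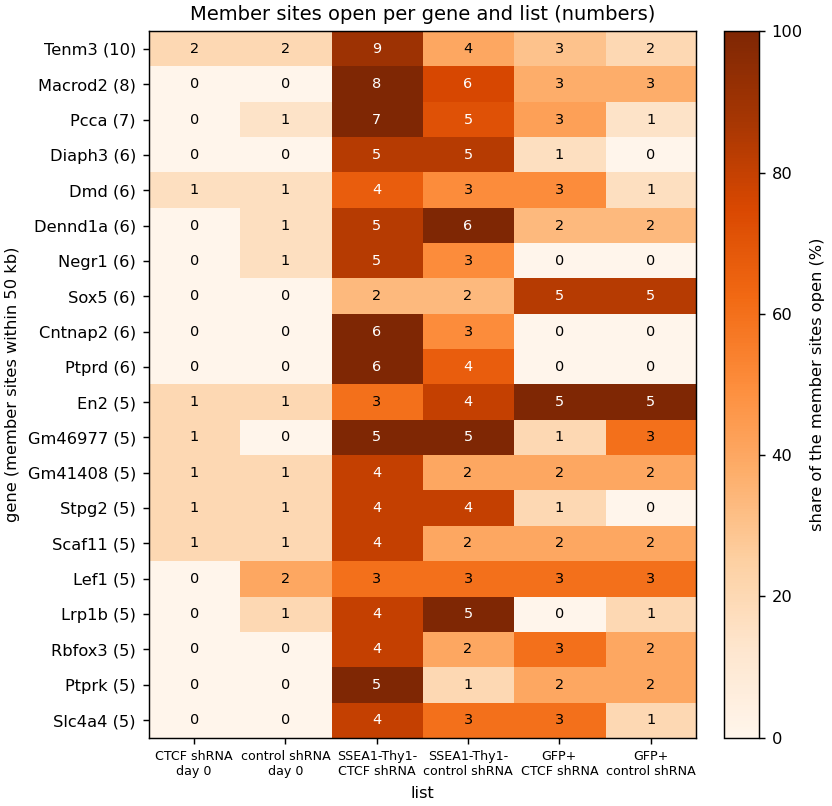
Number of member sites open in each of 6 lists (columns) for the 20 genes with the most members (rows, members in the gene or within 50 kb in brackets), with colour for the share of the gene's members. Scaf11 and Gm41408 share their 5 members. Cntnap2, Negr1 and Ptprd have 0 open in GFP+ cells, and En2 has 5 of 5 in both GFP+ lists.

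Gene lists of the cell states are described by counts beside all protein-coding genes, where members were 1.77% of pooled sites within 50 kb and 24.2% of genes had one. Of 32 pluripotency genes, 11 had a member, and 12 of 504 pooled sites (2.38%, 1.24 to 4.12%) were members. Of 34 fibroblast genes, 10 had a member, and 10 of 813 pooled sites (1.23%, 0.591 to 2.25%) were members. Of 22 epithelial genes, 8 had a member, with 11 of 457 pooled sites (2.41%, 1.21 to 4.27%). Of 16 genes of AP-1 and its partners, 4 had one, with 4 of 484 pooled sites (0.826%, 0.226 to 2.10%), and of 17 genes of CTCF, cohesin and ISWI remodellers, 6 had one, with 9 of 403 (2.23%, 1.03 to 4.20%). The median number of members per gene was 0 in each of these 5 lists and over all protein-coding genes, and each interval included 1.77%.

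**Figure D5:**
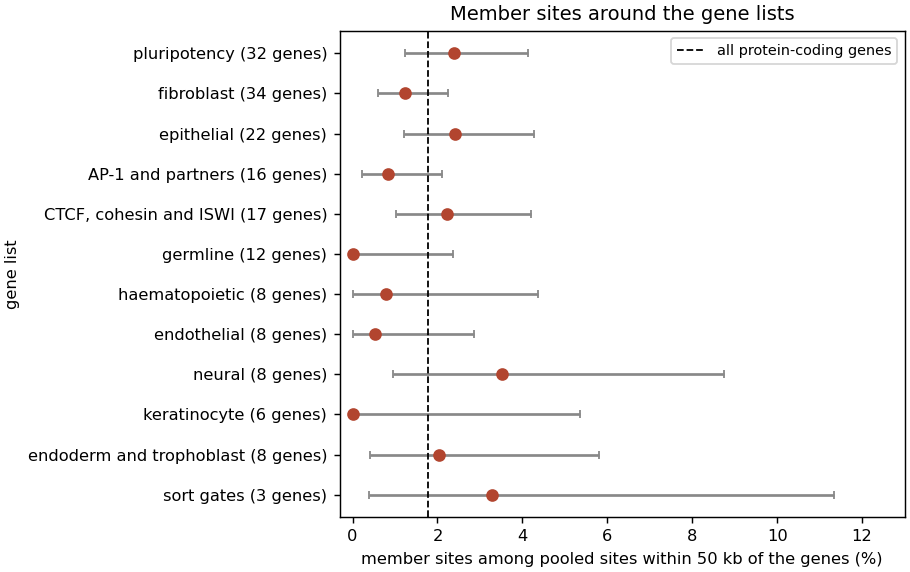
Members as a share of pooled sites within 50 kb of the genes of each list (horizontal axis, percent), with exact 95% intervals covering counting error only. The dashed line is the 1.77% of all protein-coding genes, and the interval of every list includes it.

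Markers of other cell types are given in the same way. Haematopoietic and endothelial markers had 1 of 8 genes with a member each, keratinocyte markers 0 of 6, endoderm and trophoblast markers 3 of 8, and neural markers 3 of 8. The share of pooled sites was 2.03% at the endoderm and trophoblast genes (3 of 148, 0.42 to 5.81%) and 3.51% at the neural genes (4 of 114, 0.964 to 8.74%), against 1.77% over all protein-coding genes, which both intervals include. The neural members lay near Pax6, a transcription factor of eye and neural development with 2, Dcx, a microtubule protein of young neurons, and Nes, which encodes nestin. Of the gate genes, Fut4 and Pou5f1 had 1 member each and Thy1 had 0 of 22 pooled sites.

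Pluripotency members were open at different steps. Of the 12, 8 were open in SSEA1-Thy1- cells with CTCF shRNA and 5 with control shRNA, 7 in GFP+ cells with CTCF shRNA and 6 with control shRNA, and 1 in each day 0 list. In Esrrb, an orphan nuclear receptor gene of naive pluripotency, the member at chr12:86463106-86463505 lay in the gene body and was open in both GFP+ lists and closed in both SSEA1-Thy1- lists. In Nr5a2, a nuclear receptor that can activate Oct4, the member at chr1:136878877-136879276 lay in the gene body and was open with CTCF shRNA in SSEA1-Thy1- and GFP+ cells, and closed with control shRNA in both. Near Sall4, a zinc finger factor of pluripotency, the member at chr2:168791062-168791461 was open in SSEA1-Thy1- cells with CTCF shRNA, in both GFP+ lists and in all day 10 and day 12 lists. The member nearest Nanog, a core pluripotency factor, lay in the body of its neighbour Slc2a3 at chr6:122750378-122750777, open in both SSEA1-Thy1- lists and closed in both GFP+ lists. The member within 50 kb of Pou5f1, at chr17:35535254-35535653 beside Psors1c2, was open in SSEA1-Thy1- cells with CTCF shRNA and in none of the other 5 unused lists of the day 0 and sorted series. Sox2 had 0 members among 9 pooled sites.

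Of the 10 fibroblast members, 8 were open in SSEA1-Thy1- cells with CTCF shRNA and 5 with control shRNA, 3 in GFP+ cells with CTCF shRNA and 2 with control shRNA, and 1 at day 0 with CTCF shRNA and 0 with control shRNA. Over all members the shares were 78.0% with CTCF shRNA and 57.8% with control shRNA in SSEA1-Thy1- cells, and 37.5% and 33.1% in GFP+ cells. In Dcn, the gene of the matrix proteoglycan decorin, the member at chr10:97494457-97494856 was open in both SSEA1-Thy1- lists and in neither GFP+ nor day 0 list. In Col5a2, a fibrillar collagen gene, the member at chr1:45376298-45376697 was open with CTCF shRNA at day 0 and in SSEA1-Thy1- cells and closed with control shRNA in both. Near Prrx1, a mesenchymal homeobox gene, the member at chr1:163214621-163215020 was open in SSEA1-Thy1- cells with CTCF shRNA and in no other of the unused lists.

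Of the 11 epithelial members, 6 were open in SSEA1-Thy1- cells with CTCF shRNA and 8 with control shRNA, and in GFP+ cells 5 with CTCF shRNA and 8 with control shRNA. Over all members the CTCF shRNA share was the higher one in both populations, by 20.2 and 4.45 percentage points, and the difference between the epithelial sites and all members was not tested. Crb3, a polarity protein gene, had 3 within 50 kb, one of them at chr17:57099640-57100039. The member near Cdh1, the gene of E-cadherin, lay at chr8:106563839-106564238 and was open in both GFP+ lists and closed in both SSEA1-Thy1- lists. Grhl2, an epithelial transcription factor gene, had 2 members, both open in both SSEA1-Thy1- lists. In Esrp1, an epithelial splicing regulator gene, the member in the gene body was closed in all unused lists.

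Ctcf itself had 0 members among 19 pooled sites and Smarca5, the ISWI remodeller gene that is the other target of the series, had 0 among 10. Among cohesin genes, Smc3 held 1 in its body, open in both GFP+ lists, and Pds5b held 1, open in both SSEA1-Thy1- lists. Baz2a, a partner of ISWI remodellers, had 3 within 50 kb, and none overlapped the gene. Among AP-1 partners, Tead1 and Tead4, transcription factors of Hippo signalling, held 1 member each, both open in both GFP+ lists. Fos and Batf had 1 each within 50 kb, open in both SSEA1-Thy1- lists at Fos and with CTCF shRNA alone at Batf.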

How the data were processed

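The files are 15 peak lists, 1 for each group. Per the submitters' processing notes, the tools were MACS2, Picard, SAMtools, Bowtie2, cutadapt, Trim Galore and FastQC, and the builds were GRCm38 and mm10. Not given in the sources used here are tool versions and roles, the threshold for a peak, read shifting for the transposase and the pooling of samples and days within a list. The authors deposited intervals of 400 bp as start and end positions, with a score of 0 in every line, so the deposited score was not used and peaks could not be ranked. Read depth is unknown.

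Sites were made by merging the overlapping intervals of the 4 Thy1+ and SSEA1+ lists, and presence in a list needed 1 bp of overlap. Shares have exact 95% Clopper-Pearson intervals (counting error over sites only). The 3 pairs of lists outside the rule were tested by exact sign-flip permutation (two-sided), adjusted over 3 values. No test was made within a pair, since each group has 1 list. Whether samples of a group came from separate cultures is not given. The RefSeq gene table of GRCm38.p6 gave 21883 protein-coding genes, and promoter windows were matched by symbol for 17491 of them. It gives no strand, so the planned distance to the gene start was replaced by the distance to the nearest gene end. No genome was used, so motifs were searched in promoter windows alone. The 154 members on chromosome 18 were not compared with promoter windows, so the counts of windows meeting a member leave them out. Named genes were the 20 with the most members, the 10 with the highest member share and 5 or more members, genes of the lists holding a member within 1 kb, and 10 fixed genes, with other list genes within 50 kb given as examples. Named loci were windows of 100 kb with the most members. The members and gene lists were chosen with earlier results of these data known. The alternatives tried were a 200 bp overlap, merging within 200 bp, absence within 1 kb, autosomes, a pool of 10 lists, other gene windows and leaving out each pair. The set operations were tested on simulated data. Python 3.11.15, numpy 2.4.6, pandas 2.3.3, scipy 1.17.1 and matplotlib 3.10.9 were used.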

Additional observations from a re-analysis of the deposited data

Results flagged for a closer look

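The CTCF shRNA difference in the share of member sites that were open was slightly below 0 at day 0 and above 0 in SSEA1-Thy1- and GFP+ cells. It was 20.2 percentage points in SSEA1-Thy1- cells, against -0.71 at day 0, and 4.45 points in GFP+ cells, against -0.71 at day 0. With 1 list per group the difference between populations was not tested. At day 0 the members had 219 sites open with CTCF shRNA and 250 with control shRNA of 4383, with overlapping intervals (4.37 to 5.68% and 5.04 to 6.43%). Over all pooled sites the difference was 0.23 points at day 0, 4.60 in SSEA1-Thy1- cells and 5.13 in GFP+ cells.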

How the results depend on the processing

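The number of member sites was 4351 with intervals merged within 200 bp, 3707 where absence needed no peak within 1 kb, 4240 on autosomes, and 4407 when Thy1+ CTCF shRNA peaks were counted at 200 bp of overlap, an alternative chosen after seeing the data, against 4383. The 200 bp overlap of sites and the pool of 10 lists left it at 4383. The 200 bp overlap was a weak check, because 4378 members had identical coordinates in both lists that hold them. Leaving out 1 pair at a time moved the mean difference of members minus all pooled sites to between -0.80 and 7.46 points, and it turned negative without the SSEA1-Thy1- pair. The mean for members ranged from 1.87 to 12.3 points and that for all pooled sites from 2.41 to 4.86 points. The share at gene ends was 4.96% where absence needed no peak within 1 kb and 10.8% with gene ends of 2.5 kb, and the share in gene bodies was then 41.8%. Genes with a member numbered 3290 with a window of 20 kb and 8187 with 100 kb. Against all genes, the member share was lower under every alternative run at fibroblast, AP-1, germline, haematopoietic, endothelial and keratinocyte genes. In the main setting germline and keratinocyte genes had 0 members, and haematopoietic and endothelial genes had 1 each. The share was higher at genes of CTCF, cohesin and ISWI, by 0.02 to 0.74 points, and at neural genes, by 1.12 to 3.83 points. The neural share rests on 4 members, and opposite sites were 7 of the same 114 pooled sites (6.14%, against 1.71% over all protein-coding genes). For pluripotency genes the difference ran from -0.003 to 0.70 points and for epithelial genes from -0.56 to 0.94. It also changed sign for endoderm and trophoblast and for sort gate genes. Among germline genes 4 had a member within 100 kb. No paired analysis was possible because each list pools the samples of its group, so replicate numbers could not be used as a block, and the pairs tested are pairs of lists. List size, depth and purity limit every share, and their part was not tested.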

Other observations

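Promoters that met sites of the opposite class, lost in Thy1+ and gained in SSEA1+ cells, held the AP-1 letters TGANTCA more often than those that met members: 18 of 51 windows (35.3%), against 8 of 66 member windows (12.1%), 11 of 352 windows of the comparator with the same control state (3.13%) and 7.81% of all windows. The difference was noticed in these data and was not tested. With N as any base, TGAATCA and TGATTCA are included, and the forms were not counted apart. Member windows held the E-box letters CAGGTG in 27.3%, against 30.4% in the windows of the comparator and 15.7% in those of the opposite class.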
